A study of Homo sapiens with 6 samples.

Results

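Kinetochore and spindle checkpoint genes were followed as 37 genes, chosen by name: a probe set (a small group of probes, usually within 1 exon) counted for a member when its only gene symbol in the platform annotation was that member, with old names updated, such as MLF1IP to CENPU and CASC5 to KNL1. All 37 were measured, out of 17841 genes tested. They had 839 probe sets with such a name, of which 686 were bright enough to be used. RNA came from HCT116, an established human colorectal carcinoma line that the titles call +/+ without naming the gene. All groups share that line, and no other genotype enters. Of 6 Affymetrix Human Exon 1.0 ST arrays, 2 were controls (treatment none in the labels, DMSO in the design text), 2 had received Nutlin-3 (Nutlin 3R in the labels), a small molecule that keeps MDM2 from binding p53, and 2 had received 5-fluorouracil (5FU), a pyrimidine analogue that disturbs thymidylate and RNA synthesis. Cells were collected after 12 h, per the design text, and neither the labels nor that text states a dose. Genes whose loss makes Nutlin-3 lethal were the subject of the series.

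The kinetochore is the protein assembly that joins a chromosome's centromere to spindle microtubules. Its inner layer sits on nucleosomes that carry the histone variant CENP-A, its outer layer holds microtubules, and the spindle checkpoint delays anaphase while any kinetochore is unattached. Most of these genes are transcribed chiefly in late S, G2 and M phase, when the DREAM repressor complex has left their promoters. A promoter word called the cell cycle genes homology region (CHR) is a known place of contact for DREAM and its activating counterparts, and p53 is known to act on such genes through p21, which keeps DREAM assembled.

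Values are deposited RMA values on the log2 scale, averaged over the used probe sets of a gene, so a difference of 1 is a 2-fold change. Group values are mean ± SD with n = 2. RMA values carry no count, and the number of arrays limits the precision. Values of different genes are not compared as levels. Whether the replicates came from separate cultures is not stated in the labels, so p-values measure only the spread between these arrays, which may be technical. Correlations between arrays over all genes lay between 0.92 and 0.981. The epithelial markers, 5 measured of 5 (EPCAM, KRT8, KRT18, KRT19 and CDH1), lay between 7.61 and 11.31 on every array. The 3 blood markers measured of 4 lay between 6.18 and 7.09 and the 4 fibroblast markers between 6.09 and 7.60. No background level is known for these values, so none of these markers can be called absent. The mean of the blood markers was between 6.50 and 6.84 on the 6 arrays and that of the fibroblast markers between 6.63 and 6.90, with the highest of each on Nutlin-3 replicate 1. The part of these markers in the results was not tested.

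Replicates differed in the members themselves, which bears on each comparison. Control replicate 1 was above control replicate 2 in 34 of 37 members, against 52.8% of all genes. In the drug groups the order was opposite, with replicate 1 below replicate 2 in 36 of 37 members after Nutlin-3 and 31 of 37 after 5FU. Among all genes, replicate 1 was the higher in 40.5% and 39.5%. The median difference over the members, replicate 1 minus replicate 2, was 0.40 in control, -0.43 after Nutlin-3 and -0.34 after 5FU. The corresponding medians over all genes were 0.02, -0.07 and -0.06. The part of this replicate difference in the results was not tested, and values without each array are given where they matter.

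RefSeq promoter windows, from 250 bases before to 50 bases after a transcript start on GRCh38.p14, were listed for 30 members in 34 windows. The word TTTGAA, the main form of the CHR, was searched on both strands and lay in 14 of 34 member windows (41.2%) and in 12.4% of 22199 windows of protein-coding genes. By gene, 13 of 30 members had it in at least 1 window, against 15.8% of 15843 genes. The variant TTTAAA lay in 8.82% and 10.2% of these windows. CCAAT, the word bound by NF-Y, lay in 55.9% of member windows and 34.7% of all coding ones. Of the E2F words TTTGGCGC, TTTCCCGC, TTTGCCGC and TTTCGCGC, at least 1 lay in 11.8% and 4.1%. No searched word contains another, and a match describes the sequence only.

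The stretches below run from 100 bases before to 10 bases after the listed start. They show the 8 members with TTTGAA inside that stretch. All 8 had lower means after Nutlin-3 in the results that follow, as 36 of the 37 members did, and 5 were called lower. Then come 3 members picked for small differences and for holding neither TTTGAA nor CCAAT there. Their contrast with the 8 follows from that choice. SKA1 and CENPO, also called lower, held neither word in this stretch. Neither word lay there in NUF2, CENPI, MAD2L1, CENPE, DSN1, CENPP, CENPW and NSL1, which were not called against control. Past the stretch, TTTGAA began at base 35 after the start in SKA1, 37 in CENPO, 17 in NUF2 and 25 in MAD2L1. Capitals mark TTTGAA and CCAAT, or their reverse complements TTCAAA and ATTGG. In order, the first set lies on GRCh38.p14 with NDC80 at chr18:2571457-2571566 on the plus strand, BUB1B at chr15:40160969-40161078 on the plus strand, SKA3 at chr13:21176543-21176652 on the minus strand, ZWINT at chr10:56361250-56361359 on the minus strand. These are followed by CENPA at chr2:26785956-26786065 on the plus strand, SPC25 at chr2:168890421-168890530 on the minus strand, CENPN at chr16:81007114-81007223 on the plus strand and CENPC at chr4:67545494-67545603 on the minus strand.
NDC80: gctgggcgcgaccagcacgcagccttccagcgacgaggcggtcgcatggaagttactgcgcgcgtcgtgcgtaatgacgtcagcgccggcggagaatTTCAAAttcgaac
BUB1B: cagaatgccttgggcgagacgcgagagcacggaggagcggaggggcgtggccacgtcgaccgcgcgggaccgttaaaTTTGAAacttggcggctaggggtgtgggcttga
SKA3: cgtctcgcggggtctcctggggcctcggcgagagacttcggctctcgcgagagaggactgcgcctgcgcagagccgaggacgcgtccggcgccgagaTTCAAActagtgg
ZWINT: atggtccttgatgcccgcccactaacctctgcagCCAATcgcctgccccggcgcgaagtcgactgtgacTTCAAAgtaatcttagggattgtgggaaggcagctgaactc
CENPA: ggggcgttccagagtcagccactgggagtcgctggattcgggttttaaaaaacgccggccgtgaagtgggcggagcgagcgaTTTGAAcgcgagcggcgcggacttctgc
SPC25: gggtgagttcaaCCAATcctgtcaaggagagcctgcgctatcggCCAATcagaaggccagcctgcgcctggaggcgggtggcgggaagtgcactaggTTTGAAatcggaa
CENPN: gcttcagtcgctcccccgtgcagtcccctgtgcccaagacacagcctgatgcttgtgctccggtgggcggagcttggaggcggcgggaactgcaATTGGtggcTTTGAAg
CENPC: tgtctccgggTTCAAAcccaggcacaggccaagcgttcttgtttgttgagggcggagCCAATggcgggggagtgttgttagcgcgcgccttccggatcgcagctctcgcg
The second set has CENPT at chr16:67847684-67847793 on the minus strand, MAD1L1 at chr7:2232936-2233045 on the minus strand and CENPB at chr20:3786731-3786840 on the minus strand, and none of their letters are capitals.
CENPT: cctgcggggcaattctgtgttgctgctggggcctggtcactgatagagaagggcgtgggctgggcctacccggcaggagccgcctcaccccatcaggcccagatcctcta
MAD1L1: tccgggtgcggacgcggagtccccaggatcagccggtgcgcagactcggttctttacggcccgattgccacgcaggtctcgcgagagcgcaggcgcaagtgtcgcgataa
CENPB: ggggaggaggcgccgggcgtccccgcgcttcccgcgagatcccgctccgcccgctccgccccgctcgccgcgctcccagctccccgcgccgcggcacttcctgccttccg

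After Nutlin-3, the members were lower than in control nearly throughout. Of 37 members, 36 had a lower mean and 24 were lower by at least 2-fold. The median log2 difference was -1.24, where the median over all genes tested was 0.00. Limma called 9 members lower (Benjamini-Hochberg adjusted p below 0.05 over all 17841 genes) and 0 higher: CENPA, CENPO, KNL1, ZWINT, NDC80, SPC24, SKA1, SKA3 and BUB1B. That is 24.3% of the members, where 0.858% of all genes were called lower. At an unadjusted p below 0.05 there were 29 members, all lower, against 6.23% of all genes lower by that rule. Both Nutlin-3 arrays lay below both control arrays in 31 of 37 members, against 18% of all genes. In 27 of 37 both Nutlin-3 arrays lay below the other 4 arrays, against 10.4% of all genes. In bulk RNA, fewer cells carrying these transcripts and less transcript per cell cannot be told apart. The 9 calls went to 0 without control replicate 1 (median -0.88) and to 0 without Nutlin-3 replicate 1 (median -0.99). Without control replicate 2 there were 8 calls, of which CENPA and CENPO were among the 9, and without Nutlin-3 replicate 2 there were 9, of which 7 were. The count was 20 with arrays centred on their medians and 19 with upper-quartile probe sets alone, and each of these fits held the 9. It was 12 with at least 4 probe sets a gene, which also held them. With all probe sets of a gene, or with 2 groups only, it was 6. The median of probe sets gave 8, of which 6 were among the 9. Trend and robust variances gave 8, and a replicate block gave 0.

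**Figure D1:**
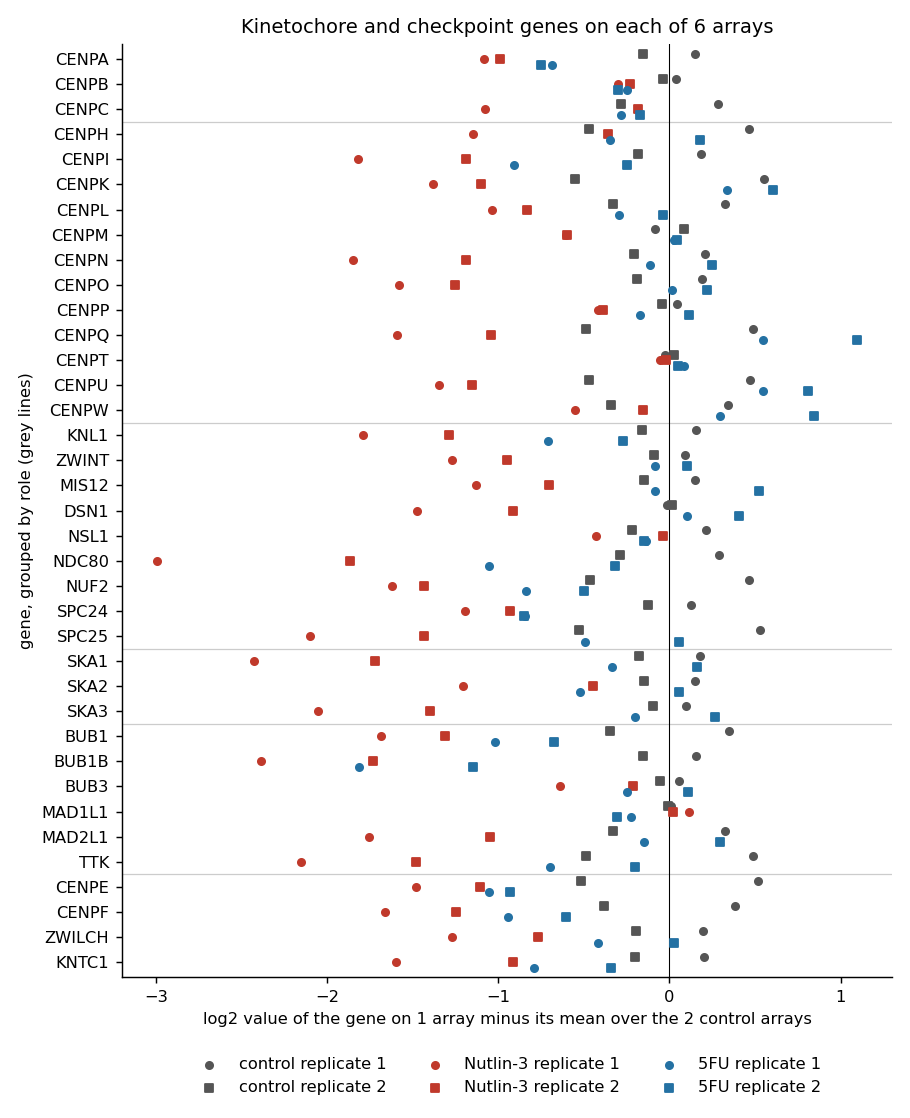
Log2 value of each member on each of the 6 arrays, minus the mean of the 2 control arrays (horizontal axis), with genes in rows grouped by role. Colours mark control, Nutlin-3 and 5FU, circles are replicate 1 and squares replicate 2. Both Nutlin-3 arrays lie left of the other 4 arrays in 27 of 37 genes, and NDC80 reaches furthest left.

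Centromere chromatin came first among the roles, with CENPA, the histone H3 variant that marks the centromere. CENPA read 8.70 and 8.40 in control, 7.47 and 7.56 after Nutlin-3 and 7.86 and 7.80 after 5FU. All 4 treated arrays lay below both controls, and CENPA fell 2.05-fold after Nutlin-3 (log2 difference -1.04 ± 0.15 SE, limma adjusted p = 0.0296). CENPB, which binds a short motif in centromeric satellite DNA, read 7.82 and 7.75 in control, 7.48 and 7.55 after Nutlin-3 and 7.53 and 7.48 after 5FU. Its treated arrays also lay below the controls, by a small amount that did not pass after Nutlin-3 (-0.27, 95% interval -0.57 to 0.03). CENPC, which links the CENP-A nucleosome to the outer kinetochore, read 6.86 and 6.29 in control, 5.50 and 6.39 after Nutlin-3 and 6.29 and 6.40 after 5FU. The groups of CENPC overlapped, since only Nutlin-3 replicate 1 was low, and its log2 difference was -0.63 (-1.36 to 0.10).

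The constitutive centromere network stays at centromeres through the cell cycle, and its 12 members varied widely. All 12 means were lower after Nutlin-3, with a median of -1.09 and 1 gene called. CENPO, a subunit of the CENP-O, P, Q and U complex, read 8.13 and 7.76 in control, 6.37 and 6.69 after Nutlin-3 and 7.96 and 8.17 after 5FU. Only the Nutlin-3 arrays of CENPO were low, and it fell 2.67-fold against control (-1.42 ± 0.19 SE, limma adjusted p = 0.0229). CENPU of the same complex read 7.19 and 6.25 in control, 5.37 and 5.57 after Nutlin-3 and 7.27 and 7.53 after 5FU, so that both 5FU arrays lay above both controls. CENPQ, also of that complex, showed the same order, at 6.36 and 5.38 in control, 4.28 and 4.83 after Nutlin-3 and 6.41 and 6.97 after 5FU. The control arrays of both genes lay far apart, and the difference from control did not pass for CENPU (-1.25, -1.94 to -0.55) or CENPQ (-1.32, -2.16 to -0.47). The Nutlin-3 mean of CENPQ, 4.55, lay below the brightness filter on probe sets of 4.73, so the size of that difference is less certain.

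CENPN, which recognises the CENP-A nucleosome, read 8.34 and 7.92 in control, 6.28 and 6.94 after Nutlin-3 and 8.02 and 8.37 after 5FU. Its groups after Nutlin-3 and in control did not overlap, and it just missed the threshold (-1.52, -2.13 to -0.90, limma adjusted p = 0.0511). CENPI, of the CENP-H, I, K and M subcomplex, read 7.17 and 6.80 in control, 5.17 and 5.80 after Nutlin-3 and 6.08 and 6.74 after 5FU, and its 5FU arrays lay between the other groups. CENPT, a histone-fold protein that recruits the NDC80 complex, was the flattest of this network. CENPT read 7.26 and 7.31 in control, 7.23 and 7.26 after Nutlin-3 and 7.36 and 7.33 after 5FU, a Nutlin-3 difference of -0.04 (-0.33 to 0.26). The other 6 members had log2 differences of -1.24 for CENPK, -0.94 for CENPL, -0.75 for CENPH, -0.60 for CENPM, -0.40 for CENPP and -0.35 for CENPW, the histone-fold partner of CENPT. None of these 6 passed. In RefSeq, CENPP overlaps the genes ASPN, ECM2, IPPK, OGN and OMD. The members CENPL, CENPM, CENPO, CENPT, CENPU, MIS12, SPC25, BUB1B and ZWILCH also overlap at least 1 protein-coding gene, and whether their probe sets share its signal was not tested.

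The microtubule-binding network held 4 of the 9 calls. NDC80, which names the complex that grips the microtubule, read 8.11 and 7.53 in control, 4.82 and 5.96 after Nutlin-3 and 6.76 and 7.50 after 5FU. It had the largest log2 difference of the 37 members, with Nutlin-3 arrays far apart, and it fell 5.39-fold (-2.43 ± 0.41 SE, limma adjusted p = 0.0483). Nutlin-3 replicate 1 of NDC80 lay near the brightness filter of 4.73, so the size of that difference is less certain. Without that array it was -1.87. KNL1, the scaffold on which BUB proteins gather, read 8.18 and 7.86 in control, 6.23 and 6.73 after Nutlin-3 and 7.31 and 7.75 after 5FU. KNL1 fell 2.91-fold (-1.54 ± 0.23 SE, limma adjusted p = 0.0328), and its 5FU arrays lay between the other groups. ZWINT, which binds KNL1, read 8.68 and 8.50 in control, 7.32 and 7.64 after Nutlin-3 and 8.51 and 8.69 after 5FU. The 5FU and control arrays of ZWINT covered the same range, and it fell 2.16-fold after Nutlin-3 (-1.11 ± 0.17 SE, limma adjusted p = 0.0312). SPC24, a subunit of the NDC80 complex, fell 2.09-fold from 7.78 ± 0.17 to 6.72 ± 0.19 (limma adjusted p = 0.0303).

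The other subunits of the NDC80 complex did not pass. NUF2 read 7.98 and 7.05 in control, 5.89 and 6.08 after Nutlin-3 and 6.68 and 7.01 after 5FU. SPC25 read 7.99 and 6.93 in control, 5.36 and 6.03 after Nutlin-3 and 6.97 and 7.52 after 5FU. Both genes had control arrays far apart, beside Nutlin-3 differences of -1.53 (-2.23 to -0.83) for NUF2 and -1.77 (-2.67 to -0.86) for SPC25. Of the MIS12 complex, which joins inner and outer layers, DSN1 read 8.08 and 8.11 in control, 6.62 and 7.18 after Nutlin-3 and 8.20 and 8.51 after 5FU. NSL1 read 7.84 and 7.40 in control, 7.19 and 7.58 after Nutlin-3 and 7.48 and 7.47 after 5FU. Within that complex DSN1 (-1.19, -1.69 to -0.70) and MIS12 (-0.92, -1.50 to -0.34) were lower after Nutlin-3 without passing, whereas the groups of NSL1 overlapped (-0.23, -0.70 to 0.24).

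The SKA complex, which helps kinetochores stay on shortening microtubules, had 2 of its 3 genes called. SKA1 read 7.31 and 6.96 in control, 4.71 and 5.41 after Nutlin-3 and 6.80 and 7.30 after 5FU. Only the Nutlin-3 arrays of SKA1 were low, 1 of them at the brightness filter, and it fell 4.21-fold (-2.07 ± 0.28 SE, limma adjusted p = 0.023). SKA3 read 8.38 and 8.19 in control, 6.23 and 6.89 after Nutlin-3 and 8.09 and 8.56 after 5FU. SKA3 showed the same order and fell 3.31-fold (-1.73 ± 0.25 SE, limma adjusted p = 0.0296). SKA2 read 8.77 and 8.47 in control, 7.41 and 8.17 after Nutlin-3 and 8.10 and 8.67 after 5FU, and its Nutlin-3 arrays lay far apart (-0.83, -1.52 to -0.13).

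Among checkpoint genes, BUB1B was called. BUB1B, which encodes BubR1 of the complex that inhibits the anaphase-promoting complex, read 8.77 and 8.46 in control, 6.23 and 6.88 after Nutlin-3 and 6.80 and 7.47 after 5FU. All 4 treated arrays lay well below both controls, and BUB1B fell 4.17-fold after Nutlin-3 (-2.06 ± 0.29 SE, limma adjusted p = 0.0269). TTK, the kinase MPS1 that starts the checkpoint signal, read 8.69 and 7.71 in control, 6.04 and 6.71 after Nutlin-3 and 7.50 and 8.00 after 5FU. BUB1, a kinase that sits on KNL1, read 9.56 and 8.87 in control, 7.53 and 7.90 after Nutlin-3 and 8.19 and 8.53 after 5FU. MAD2L1, which encodes MAD2, read 8.97 and 8.31 in control, 6.88 and 7.59 after Nutlin-3 and 8.49 and 8.94 after 5FU. These 3 genes had Nutlin-3 arrays below both controls and missed the threshold, with log2 differences of -1.82, -1.50 and -1.40. MAD1L1, which anchors MAD2 at the kinetochore, was the member with a higher mean after Nutlin-3. MAD1L1 read 7.65 and 7.63 in control, 7.75 and 7.66 after Nutlin-3 and 7.41 and 7.34 after 5FU, a Nutlin-3 difference of 0.07 (-0.23 to 0.37). BUB3, the partner of BUB1 and BubR1, differed by -0.43 (-0.89 to 0.04).

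Of the corona, the outermost layer that assembles on unattached kinetochores, 0 of 4 genes were called by limma while all 4 had an unadjusted p below 0.05. CENPE, a plus-end directed kinesin, read 7.28 and 6.25 in control, 5.28 and 5.66 after Nutlin-3 and 5.71 and 5.84 after 5FU. CENPF, a large microtubule-binding protein, read 8.75 and 7.99 in control, 6.71 and 7.13 after Nutlin-3 and 7.43 and 7.77 after 5FU. Both genes had all 4 treated arrays below both controls. ZWILCH read 8.24 and 7.85 in control, 6.77 and 7.27 after Nutlin-3 and 7.63 and 8.07 after 5FU. KNTC1, its partner in the complex that brings dynein, read 7.97 and 7.57 in control, 6.17 and 6.85 after Nutlin-3 and 6.98 and 7.43 after 5FU. The Nutlin-3 differences of the 4 lay between -1.46 for CENPF and -1.02 for ZWILCH, with limma adjusted p between 0.0724 and 0.159.

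After 5FU, the members did not move as a block. Their median log2 difference from control was -0.16 and that of all genes 0.00, with 24 means lower and 13 higher. Limma called 0 of 37, where 0.448% of all genes were called in either direction. At an unadjusted p below 0.05 there were 6, all lower, which is 16.2% of the members against 4.07% of all genes called lower by that rule. They were BUB1B (-1.48, -2.17 to -0.79), CENPE (-0.99, -1.75 to -0.24), BUB1 (-0.85, -1.46 to -0.23), SPC24 (-0.85, -1.22 to -0.48), CENPF (-0.77, -1.43 to -0.12) and CENPA (-0.72, -1.07 to -0.36), with limma adjusted p from 0.105 to 0.382. Both 5FU arrays lay below both controls in 13 of 37, against 18% of all genes. They lay above both controls in 4 of 37, against 20% of all genes: CENPQ (0.82, -0.02 to 1.66), CENPU (0.68, -0.01 to 1.38), DSN1 (0.26, -0.24 to 0.75) and CENPT (0.07, -0.23 to 0.36).

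By role, the lowest medians after 5FU were those of the corona (4 of 4 means lower, median -0.67) and the checkpoint genes (5 of 6, median -0.36). Centromere chromatin followed with 3 of 3 means lower (median -0.28) and the microtubule-binding network with 6 of 9 (median -0.22). In the constitutive centromere network 8 of 12 means were higher, with a median of 0.07, and the SKA genes had a median of -0.09. The median over all members turned positive without control replicate 1 (0.040) or without 5FU replicate 1 (0.046). It was -0.36 without control replicate 2 and -0.28 without 5FU replicate 2. With arrays centred on their medians, SPC24 and BUB1B were called lower, and with upper-quartile probe sets alone SPC24.

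**Figure D2:**
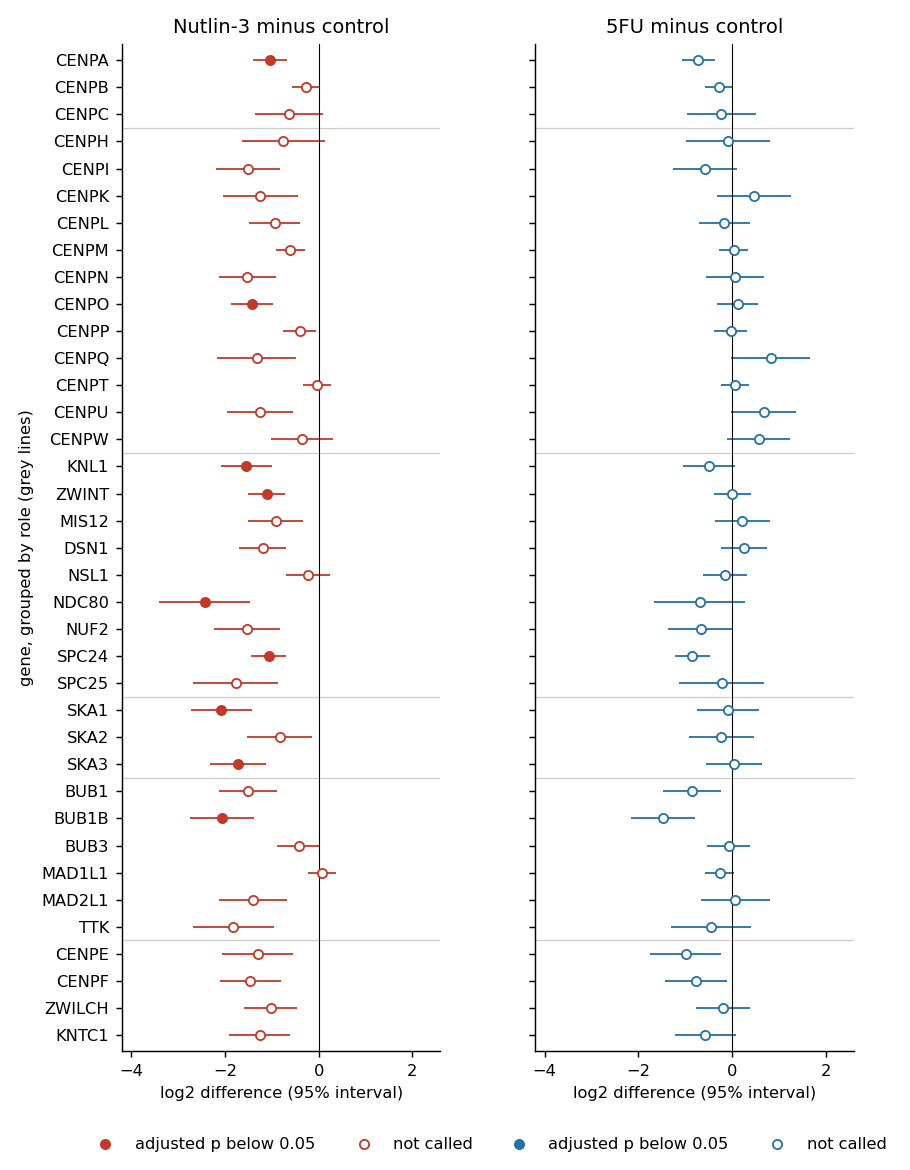
Log2 difference from control with its 95% limma interval for each member, Nutlin-3 on the left and 5FU on the right, genes in rows by role. Filled points passed the adjusted threshold: 9 after Nutlin-3 and 0 after 5FU. Both panels share the same 2 control arrays.

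Set directly against 5FU, Nutlin-3 gave lower values in 35 of 37 members, with a median log2 difference of -0.83 and -0.01 over all genes. Limma called 6 of 37 lower (16.2%), where 0.572% of all genes were called lower, and 0 higher. SKA1 was 3.96-fold lower after Nutlin-3 than after 5FU (-1.99 ± 0.28 SE, limma adjusted p = 0.0417), CENPU 3.81-fold (-1.93 ± 0.29 SE, adjusted p = 0.0499) and SKA3 3.4-fold (-1.76 ± 0.25 SE, adjusted p = 0.0435). CENPO was 2.9-fold lower (-1.54 ± 0.19 SE, adjusted p = 0.0309), DSN1 2.73-fold (-1.45 ± 0.21 SE, adjusted p = 0.0442) and ZWINT 2.17-fold (-1.12 ± 0.17 SE, adjusted p = 0.0457). CENPQ had the largest difference, 4.4-fold, and did not pass (-2.14, -2.98 to -1.30, adjusted p = 0.0657). Both Nutlin-3 arrays lay below both 5FU arrays in 30 of 37 members, against 25.2% of all genes.

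Arrays of the 2 drugs overlapped in 6 members, which were CENPB, CENPC, NSL1, SKA2, BUB1B and BUB3. Of the 6 genes with an unadjusted p below 0.05 for 5FU against control, 4 had an interval between the drugs that included 0. BUB1B differed by -0.58 (-1.26 to 0.11), CENPA by -0.32 (-0.67 to 0.04), CENPE by -0.30 (-1.06 to 0.45) and SPC24 by -0.22 (-0.59 to 0.15). These intervals do not show that the drugs acted alike on them. MAD1L1 was higher after Nutlin-3 than after 5FU by 0.33 (0.03 to 0.63) without passing (limma adjusted p = 0.331). The 5FU mean lay between the Nutlin-3 and control means in 22 members, at or above control in 13 and at or below Nutlin-3 in 2, which were CENPB and MAD1L1. The 6 calls went to 0 without Nutlin-3 replicate 1, without 5FU replicate 1 or without 5FU replicate 2, and to 1 (CENPO) with all probe sets of a gene. With arrays centred on their medians they went to 12, which held the 6. A fit of the 2 drug groups only, without the control arrays, called 4 members (CENPK, CENPO, CENPQ and CENPU), of which 2 were among the 6. ZWINT, DSN1, SKA1 and SKA3 were not called in that fit. Trend and robust variances gave 4 (CENPO, DSN1, SKA1 and SKA3), and a replicate block gave 0.

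**Figure D3:**
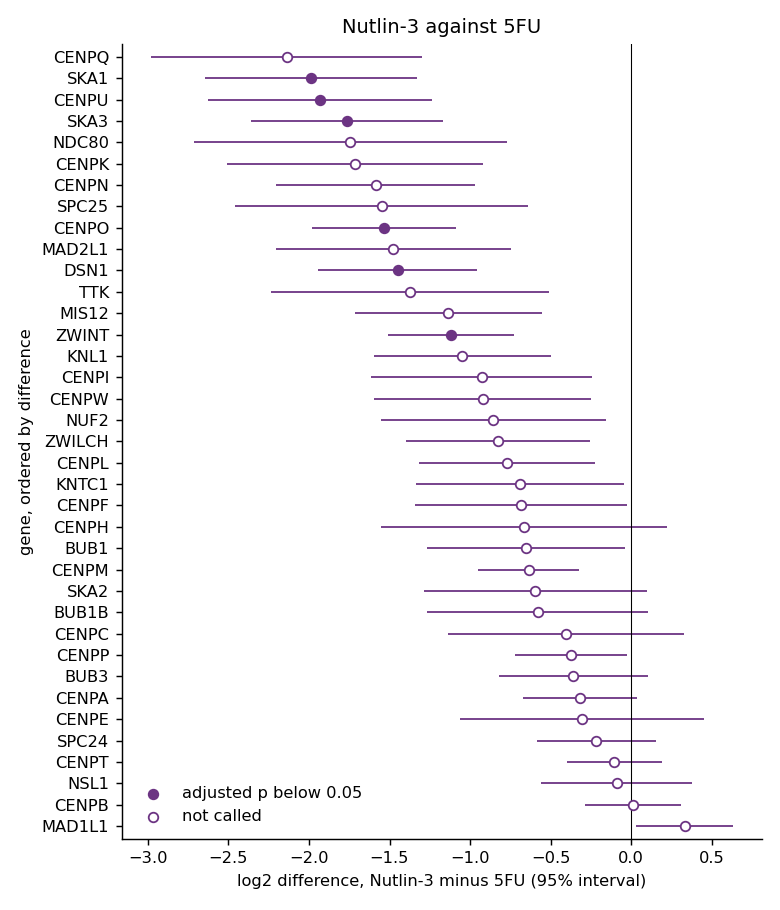
Log2 difference of Nutlin-3 minus 5FU with its 95% limma interval for the 37 genes, ordered by size. Filled points are the 6 called genes, CENPQ at the top did not pass, and the CENPB and MAD1L1 estimates lie at or right of 0.

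Single probe sets show how evenly a gene's signal moved. Of the 686 used probe sets of the members, 619 (90.2%) were lower after Nutlin-3, against 47.4% of 705699 probe sets above the brightness filter. After 5FU 503 (73.3%) were lower, against 51.1%. Probe sets of 1 gene share its RNA and are not replicates, and limma called 0 of the 686 in any comparison at an adjusted p below 0.05. At an unadjusted p below 0.05 Nutlin-3 against control gave 453, 5FU against control 149 and the drugs against each other 306, where the shares of all probe sets were 6.14%, 6.27% and 7.39%. With trend and robust variances the counts called were 130, 2 and 45, where 0.382%, 0.117% and 0.228% of all probe sets were called. By brightness, the median Nutlin-3 difference was -1.26 in the 484 probe sets above the upper quartile and -1.27 in the 202 below it.

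NDC80 was lower on 14 of 14 probe sets after Nutlin-3 (from -3.43 to -1.62) and on 14 of 14 after 5FU (from -0.93 to -0.24). BUB1B was lower on 29 of 29 after each drug, with medians of -2.12 and -1.46. SKA1 was lower on 11 of 11 after Nutlin-3 with a median of -2.27, and on 6 of 11 after 5FU with a median of -0.03. None of the used probe sets of these 3 genes was higher after Nutlin-3. CENPA divided instead: after Nutlin-3, 6 of its 10 probe sets had differences from -2.39 to -1.27 and the other 4 from 0.03 to 0.32. After 5FU the same 6 probe sets of CENPA lay between -1.56 and -1.10 and the other 4 between -0.08 and 0.42. The gene value of CENPA averages both kinds, and none of the 10 passed on its own. CENPU had 13 of 15 probe sets lower after Nutlin-3 and 3 of 15 lower after 5FU. Those 3 differed from control by 0.09, -0.10 and 0.19 after Nutlin-3. They were higher after Nutlin-3 than after 5FU, by 0.41, 0.29 and 0.25, while the other 12 were lower. The gene value of CENPU thus also averages unlike probe sets. CENPO had 16 of 17 lower after Nutlin-3 and 8 of 17 after 5FU. CENPT had 17 of 33 lower after Nutlin-3 and MAD1L1 12 of 26, close to an even split.

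**Figure D4:**
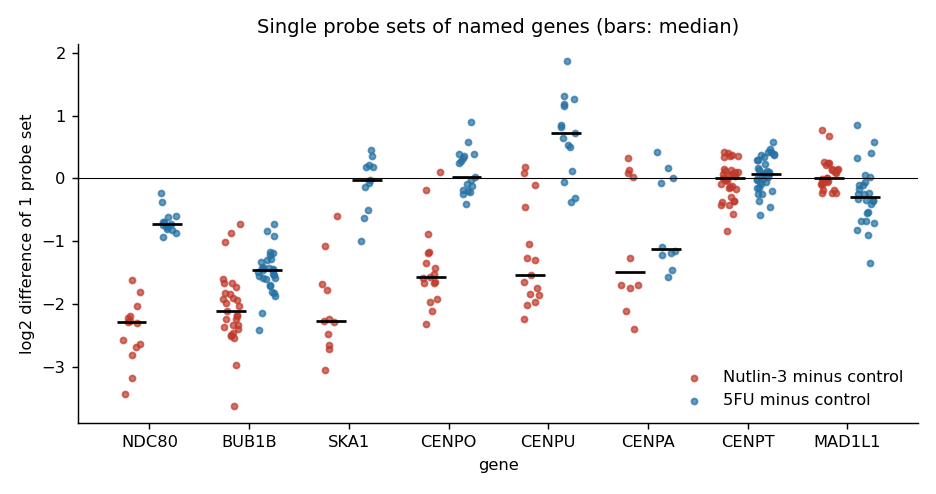
Log2 difference from control of each used probe set of 8 genes (points) with the median (bar), Nutlin-3 in red and 5FU in blue. NDC80 and BUB1B lie below 0 throughout for both drugs, CENPA falls into a lower and an upper cluster, and CENPT and MAD1L1 scatter around 0 after Nutlin-3.

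Returning to the promoter words, members with TTTGAA in a window held more of the calls. Of 13 such members 7 were called lower after Nutlin-3 (CENPA, CENPO, ZWINT, NDC80, SKA1, SKA3 and BUB1B), with a median log2 difference of -1.52 and a range from -2.43 to -0.63. Of 17 members with a listed window and no TTTGAA, 1 was called (SPC24), with a median of -1.02 and a range from -1.50 to 0.07. Of the 7 members without a listed window 1 was called (KNL1). CENPT, MAD1L1, CENPB, NSL1 and CENPW, whose Nutlin-3 differences were the nearest to 0, had no TTTGAA in the window, which says only that these letters are not there. After 5FU the medians of the groups with and without the word were -0.22 and -0.14. The difference between these groups of genes is a description and was not tested.

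**Figure D5:**
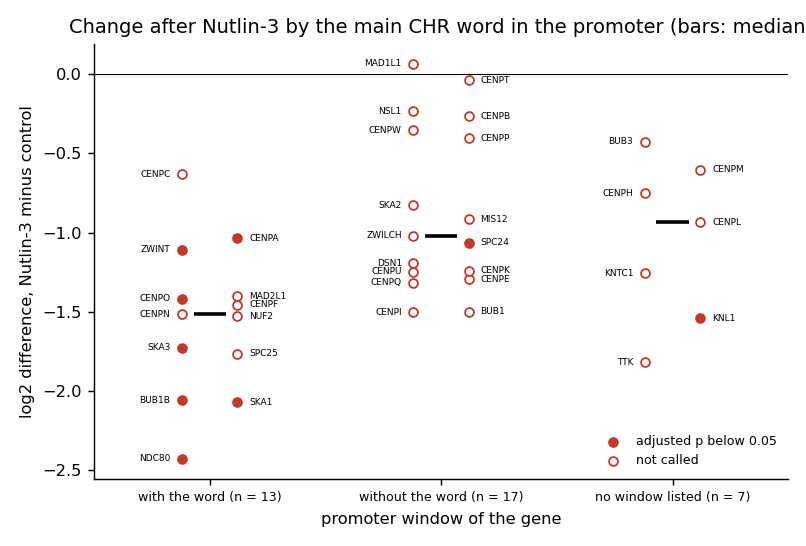
Log2 difference of Nutlin-3 minus control for each member (points, named), split by whether a promoter window holds TTTGAA on either strand, with the median as a bar. Filled points were called: 7 of 13 with the word, 1 of 17 without it and 1 of 7 with no listed window.

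Other genes of the centromere and checkpoint, 22 measured of 26 listed, gave the context. After Nutlin-3 10 of 22 were called lower and 0 higher, where 0.858% of all genes were called lower. Means were lower in 22 of 22, with a median of -0.97, where that of all genes was 0.00. Among the called genes the largest differences were those of HJURP, the chaperone that loads CENP-A (3.67-fold, limma adjusted p = 0.00982), SGO2, a shugoshin (3.3-fold, adjusted p = 0.0395), CDCA8, borealin of the chromosomal passenger complex (2.65-fold, adjusted p = 0.0248), and the mitotic kinase PLK1 (2.59-fold, adjusted p = 0.0133). After 5FU PLK1 (2.67-fold, limma adjusted p = 0.026) and the anaphase activator CDC20 (1.98-fold, adjusted p = 0.0451) were called lower, where 0.118% of all genes were. The median was -0.29, and that of all genes 0.00. Against 5FU, Nutlin-3 gave 1 call of 22, HJURP (3.36-fold lower, limma adjusted p = 0.0164), where 0.572% of all genes were called lower. HJURP was lower after Nutlin-3 than in both other groups, as CENPO, ZWINT, SKA1 and SKA3 were, while PLK1 differed between the drugs by 0.040 (limma adjusted p = 0.933). After Nutlin-3, leaving out control replicate 1 or Nutlin-3 replicate 1 left 0 calls. Without control replicate 2 there were 5 calls, 4 of them among the 10, and without Nutlin-3 replicate 2 there were 4, 3 of them among the 10. The calls after 5FU went to 0 when any control or 5FU array was left out, and to 1 without either Nutlin-3 array. Against 5FU, the call went to 0 without Nutlin-3 replicate 1 or either 5FU array, and to 2 without either control array.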

How the data were processed

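Log2 expression values per probe set of 6 arrays were taken as deposited. The authors used RMA, per the submitters' processing notes, whose version and settings are not given there. There were 1411399 probe sets, with 0 missing values. Platform annotation gave 357604 probe sets 1 symbol, and symbols were updated through RefSeq synonyms (GRCh38.p14 table, for names and overlaps).

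Each gene's value averaged its probe sets brighter, on the mean of 6 arrays, than the median probe set (4.73), where it had at least 2. The 3 groups were fitted over 17841 genes in limma 3.58.1 (R 4.3.3, lmFit with eBayes, unblocked, leaving 3 residual degrees of freedom), with Benjamini-Hochberg adjustment over all genes and a threshold of 0.05. An exact two-sided permutation test of 2 against 2 arrays cannot go below 0.333, so calls rest on variance shared across genes. The fit was tested on simulated data. Members and lists were chosen with earlier results of these data known. Values on every array are given for the 4 largest Nutlin-3 differences of each role, the smallest, and genes called in another comparison, and up to 4 called genes outside the members are named per comparison. Promoter words were searched with Python 3.11.15. No label or header used here names a slide, scan day or other batch. Alternatives covered centring, probe-set filters and summaries, variances, the samples fitted, a replicate block and each array left out.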

Additional observations from a re-analysis of the deposited data

How the results depend on the processing

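Across all alternatives run, none of the 15 member results called in the report reversed direction, while each lost its call in some. Direction was fixed where blocks, variances, the required number of probe sets or 2 groups only left the differences unchanged. Leaving out 1 array could not reverse it either, since the compared groups did not overlap in these genes. Setting Nutlin-3 against control called 9 members, 5FU against control 0 and the drugs against each other 6, an order kept below. The genes called were not always the same where the counts were close. They were 20, 2 and 12 with arrays centred on their medians and 19, 1 and 9 with upper-quartile probe sets. Calls were 6, 0 and 1 when dim probe sets were kept, that is, with all of a gene's probe sets. With the median of probe sets they were 8, 0 and 5. Leaving out 1 array gave 0 to 9, 0 to 0 and 0 to 5, and medians from -1.46 to -0.88, from -0.36 to 0.046 and from -1.06 to -0.63. The 5FU median reversed without control replicate 1 (0.040) and without 5FU replicate 1 (0.046). In each case the cause was not tested.

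For the partner list, with 10, 2 and 1 calls, leaving out 1 array gave 0 to 7, 0 to 1 and 0 to 2. Its 5FU count was 1 with all probe sets of a gene, with the median of probe sets, with trend and robust variances and with 2 groups only. Its count for Nutlin-3 against 5FU was 4 when centred, 0 with all probe sets, 4 with upper-quartile probe sets, 2 with the median of probe sets and 2 with 2 groups only. For single probe sets of the members, trend and robust variances gave 130, 2 and 45 calls in place of 0, 0 and 0. With 2 arrays a group, calls near the threshold are limited by the number of arrays, and a group left with 1 array is assumed to vary like the others.

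With the replicate number as a block, members called were 0, 0 and 0, and partners 0, 0 and 0. The main fit had no block because the labels do not say that a replicate number marks a shared culture or day. Deviations of same-numbered arrays correlated at -0.56 for control and Nutlin-3, -0.52 for control and 5FU and 0.63 for the 2 drugs. Whether the numbers pair the arrays was not tested. A crossed replicate block, with control numbers exchanged and chosen after seeing the data, called 31, 14 and 27 members and 16, 9 and 15 partners.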
